A study of Caenorhabditis elegans with 36 samples.

Results

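Histone genes were followed in whole *Caenorhabditis elegans* through adulthood. They were taken as the genes whose symbol is *his-* followed by a number and that reached 1 CPM (read count scaled to library size) in at least 3 of 36 libraries. Of 42 such genes in the deposited table, 30 met this rule, among 15713 genes that met the same minimum of 18949 in the table. In the annotation of WBcel235, 72 genes carry a *his-* name, of which 42 have an entry in the table. Of the 36 annotated *his-* genes that share a symbol with another gene identifier, 1 was a member (*his-57*, annotated under the symbol *his-47*), against 29 of the 36 genes with a symbol of their own. Just inside the minimum were *his-31* and *his-1*, with a third-highest library of 1.15 and 1.80 CPM, and just outside it were *his-66* and *his-55*, with 0.918 and 0.864 CPM.

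The worms were N2 wild type hermaphrodites raised on RNAi plates, fed either a mix of 50% *cco-1* RNAi bacteria and 50% control bacteria (*cco-1* RNAi) or bacteria carrying the empty vector (ev, control), and were collected every other day of adulthood, at day 1, day 3, day 5, day 7, day 9 and day 11. The *cco-1* product belongs to complex IV of the mitochondrial respiratory chain, and its knockdown is a standard way to lower respiration in worms. Each RNAi and day had 3 biological replicates, each a pool of many synchronized worms, so that 12 groups were compared. The sample labels also carry a larval or young adult collection stage that is the same for every sample, and the days used here are those of the sample titles.

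Histones package DNA. A nucleosome holds the core histones H2A, H2B, H3 and H4, the linker histone H1 binds the DNA between nucleosomes, and the H3.3 variants replace H3 outside S phase. Replication-dependent histone genes lie in clusters, often as divergent pairs, have no introns and give mRNAs that end in a stem-loop in place of a polyA tail, while variant genes are spliced and polyadenylated. In an adult worm the somatic cells no longer divide, and DNA is replicated mainly in the germline and in embryos held in the uterus. The libraries were polyA-selected and only uniquely mapped reads were counted, so that transcripts without a polyA tail and near-identical copies are under-sampled, and the levels below are those of the captured part.

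By the annotation, 8 members are spliced and have a transcript longer than the coding sequence. These are *his-24* (H1), *his-35* and *his-57* (H2A), *his-41* (H2B), *his-37* (H4) and the H3.3 genes *his-71*, *his-72* and *his-74*. The other 22 are intronless, with a model that ends at the coding sequence. They comprise *his-3*, *his-61* and *his-68* (H2A), *his-4*, *his-48* and *his-62* (H2B), *his-2*, *his-6*, *his-32*, *his-40*, *his-59* and *his-63* (H3), *his-1*, *his-5*, *his-31*, *his-38*, *his-60*, *his-64* and *his-67* (H4), the H3.3-like genes *his-69* and *his-70*, and *his-73*, whose coding sequence of 141 bases put it in no class. Counting ignored strand, and its union mode gives a read that overlaps exons of several genes to none of them. In the annotation used here, 6 members share exon bases with other genes, and under such models their values would rest on reads outside those bases. The overlaps are those of *his-4* with *T10C6.19*, *his-24* with *M163.16* and *M163.19*, *his-37* with *nstp-10*, *his-41* with *C50F4.6*, *his-57* with *klp-12* and *his-73* with *W09H1.4*. The study's methods name an earlier annotation release, whose models were not compared. Per kilobase of annotated transcript, the mean over all 36 libraries was 484 CPM for *his-72*, 109 CPM for *his-35*, 74.6 CPM for *his-37* and 70.4 CPM for *his-68*, the intronless gene with the highest value. *his-74* lay between *his-72* and *his-35*, and every other member had at most 40.5 CPM.

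The table was read as quantile-normalized CPM, with library sums between 916765 and 953972 and with no value at 0, so that read depth is unknown. Changes are log2FC on the log2(CPM + 1) scale, which understates changes of low genes, with the standard error (SE). A gene was called at an absolute log2FC above 0.5 with an adjusted *P* below 0.05 (limma, Benjamini-Hochberg over all 15713 genes). The targeted gene *cco-1* was lower in *cco-1* RNAi worms on every day, with log2FC between -1.57 and -0.57. Replicates correlated least in *cco-1* RNAi worms at days 9 and 11 (lowest *r* of 0.991 in each), where replicate 2 stood farthest from its group. Without these 2 libraries, 11 in place of 8 members were called between *cco-1* RNAi and ev at day 9 and 21 in place of 20 at day 11. In bulk RNA of whole worms, fewer cells of a type and less RNA per cell cannot be told apart.

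In ev worms the summed level of the intronless members was highest at day 11, and that of the spliced members, of which *his-72* held the most, at day 5. Summed over the 22 intronless genes, ev libraries held 57.2, 57.6 and 59.1 CPM at day 1, 120 to 122 CPM at day 3, 78.1 to 81.6 CPM at day 5, 81.5 to 94.8 CPM at day 7, 141 to 145 CPM at day 9 and 211, 217 and 225 CPM at day 11. In *cco-1* RNAi worms the same sum was 56.4 to 60.8 CPM at day 1, 77.7 to 83.9 CPM at day 3, 98.8 to 113 CPM at day 5, 93.5 to 97.5 CPM at day 7, 105 to 122 CPM at day 9 and 104.9, 156 and 118.5 CPM at day 11. The ev worms thus had an early maximum at day 3 and a higher one at day 11, and the *cco-1* RNAi libraries of day 11 all lay below those of ev. Summed over the 8 spliced genes, *cco-1* RNAi worms averaged 564 ± 82.9 CPM and ev worms 891 ± 71.1 CPM at day 5, and 615 ± 30.3 CPM and 513 ± 39.5 CPM at day 11 (SD, *n* = 3 each). The mid-adult maximum of the spliced sum was mainly that of *his-72*. Without it, the other 7 spliced genes averaged 328, 331, 288, 255, 225 and 292 CPM in *cco-1* RNAi worms and 302, 319, 336, 307, 246 and 241 CPM in ev worms from day 1 to day 11 in order. These sums are a description and were not tested.

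**Figure D1:**
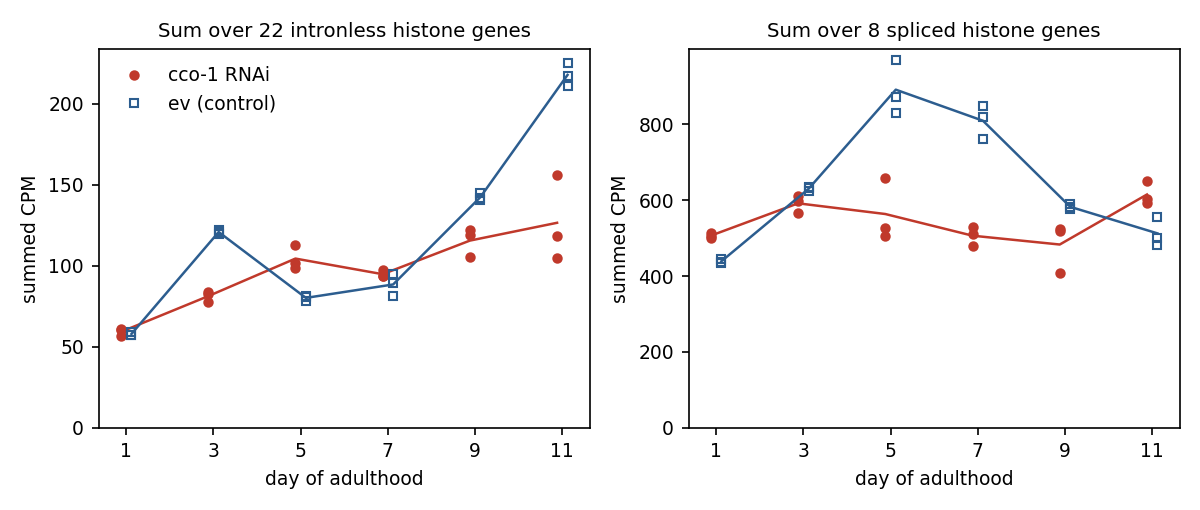
Summed CPM (vertical axes, from 0) of the 22 intronless and the 8 spliced histone genes against day of adulthood. Each point is 1 library (filled circles, *cco-1* RNAi; open squares, ev) and lines join the means of 3. At day 11 the intronless sum lies between 105 and 156 CPM in *cco-1* RNAi worms and between 211 and 225 CPM in ev worms.

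Nearly all intronless members rose with age in ev worms. At day 11 against day 1 in ev worms, 21 of 30 members were higher and 5 lower, where 69.2% of all genes tested were called (41.8% higher and 27.4% lower), and the members' median log2FC was 1.28 against 0.31 over all genes. Of the 22 intronless genes, 19 rose and 2 fell (median 1.5). The largest rise was that of *his-32*, an H3 gene, with 8.68, 8.03 and 8.66 CPM at day 11 and 0.767, 0.264 and 0.510 CPM at day 1 (log2FC 2.66, SE 0.11). *his-64*, an H4 gene, had 8.74, 10.7 and 9.53 CPM at day 11 and 0.591, 0.782 and 1.08 CPM at day 1 (log2FC 2.55, SE 0.17). *his-62*, an H2B gene, had 23.8, 23.9 and 24.4 CPM at day 11 and 3.22, 3.62 and 3.41 CPM at day 1 (log2FC 2.50, SE 0.13). In each of these genes every old library lay above every young one. Genes of all core classes took part, since *his-61* (H2A), *his-48* (H2B), *his-63* (H3) and *his-60* (H4) rose by 2.06, 2.38, 2.41 and 2.27 on the log2 scale. Low members rose as well, among them *his-1* with 1.80, 2.18 and 2.07 CPM at day 11 and 0.264, 0.264 and 0.351 CPM at day 1 (log2FC 1.22, SE 0.12). *his-1* and *his-31* reached 1 CPM only in ev libraries of days 9 and 11. *his-2* and *his-4* reached it there and in a *cco-1* RNAi library of day 11. Their place among the 22 thus rests on their high level in old ev worms, and their rise there is no separate support.

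The same comparison in *cco-1* RNAi worms gave smaller changes. Of 30 members, 15 were higher and 6 lower at day 11 against day 1 (57.8% of all genes called, 34.1% higher and 23.7% lower), with a median log2FC of 0.53 against 0.18 over all genes. Among the intronless genes, 13 rose, 2 fell and 7 were not called (median 0.94). *his-32* again rose most, to 5.27, 7.35 and 6.39 CPM at day 11, against 0.957, 0.646 and 0.719 CPM at day 1 (log2FC 2.04, SE 0.11). *his-48* had a log2FC of 1.64, *his-62* of 1.43 and *his-61* and *his-59* (H3) of 1.27 each. The 7 not called were *his-1*, *his-2*, *his-3*, *his-4*, *his-5*, *his-31* and *his-70*, for example *his-1* (log2FC 0.17, adjusted *P* = 0.20 by limma) and *his-5* (log2FC 0.27, adjusted *P* = 0.056 by limma), both H4 genes.

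At day 11, *cco-1* RNAi worms had less of most intronless histone mRNAs than ev worms. Of 30 members, 18 were lower and 2 higher, where 28.3% of all genes tested were called (15.1% higher and 13.3% lower), and the median log2FC was -0.62 against -0.08 over all genes. All 16 intronless genes called were lower (median over the 22 genes -0.87). They include *his-1*, *his-2*, *his-4* and *his-31*, which met the minimum almost only in old ev worms. The rule thus favoured a lower level of these genes here. *his-64* had 1.55, 4.24 and 2.25 CPM in *cco-1* RNAi worms, against 8.74, 10.7 and 9.53 CPM in ev worms (log2FC -1.59, SE 0.17). *his-63*, an H3 gene, had 3.66, 5.27 and 3.74 CPM in *cco-1* RNAi worms, against 13.8, 12.1 and 13.5 CPM in ev worms (log2FC -1.45, SE 0.12). *his-67*, an H4 gene, had 2.88, 4.64 and 3.20 CPM in *cco-1* RNAi worms, against 11.1, 10.4 and 11.7 CPM in ev worms (log2FC -1.42, SE 0.14). In these genes the groups did not overlap. Replicate 2 of the *cco-1* RNAi worms was the highest of its group in many of them, as in *his-62* with 8.12, 17.6 and 10.5 CPM in *cco-1* RNAi worms and 23.8, 23.9 and 24.4 CPM in ev worms (log2FC -1.0, SE 0.13). Of the genes called lower, *his-61* alone had overlapping libraries, with 6.41, 12.6 and 8.01 CPM in *cco-1* RNAi worms and 11.4, 14.3 and 14.6 CPM in ev worms (log2FC -0.57, SE 0.13). How often called genes overlapped was not worked out over all genes. After rescaling by the median of ratios, 13 of the 16 intronless genes were still called lower, and *his-31*, *his-61* and *his-70* came to -0.47, -0.46 and -0.42 without a call. The share of all genes called was not worked out after the rescaling, here and in later paragraphs.

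**Figure D2:**
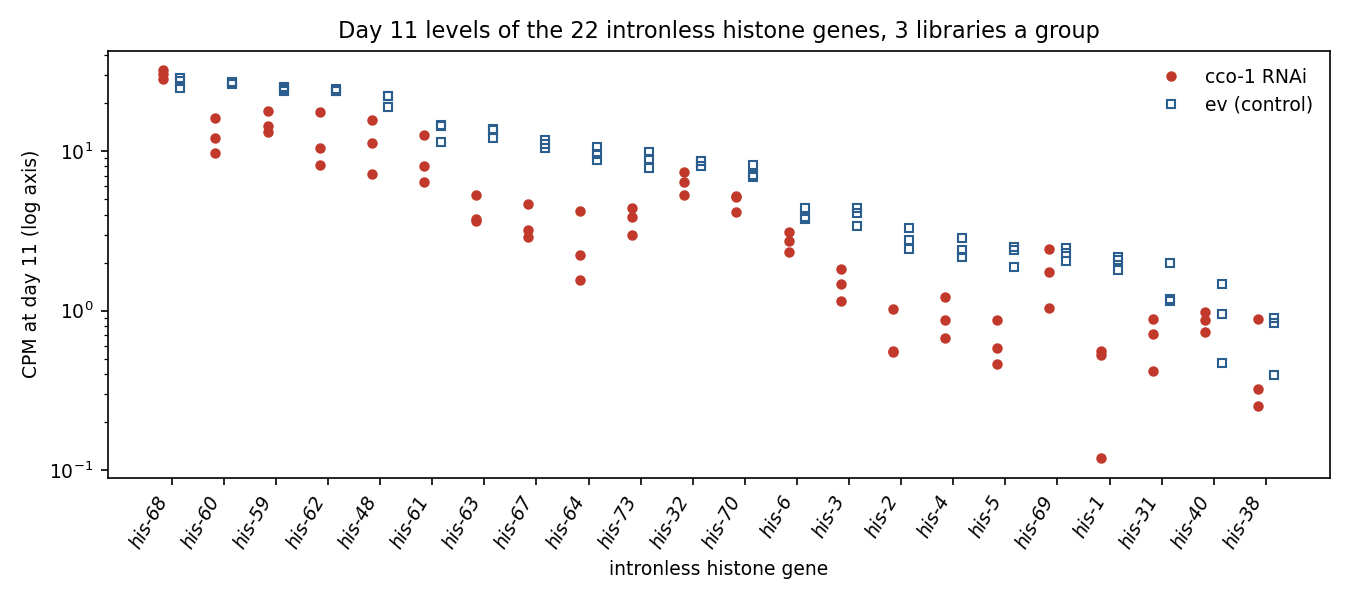
CPM at day 11 (vertical log axis) of the 22 intronless histone genes, ordered by their mean in ev worms. Points are single libraries (filled circles, *cco-1* RNAi, left; open squares, ev, right), 3 in each group. *his-63*, *his-67* and *his-64* show gaps between the groups, while *his-68*, *his-40* and *his-38* overlap.

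Not every intronless gene took part in the difference at day 11. *his-68*, an H2A gene and the intronless member with the highest level per length, had 30.5, 32.1 and 28.2 CPM in *cco-1* RNAi worms and 24.8, 27.3 and 28.6 CPM in ev worms (log2FC 0.17, SE 0.07), and the groups overlapped. *his-32* had 5.27, 7.35 and 6.39 CPM in *cco-1* RNAi worms and 8.68, 8.03 and 8.66 CPM in ev worms, and its log2FC of -0.38 (SE 0.11) was under the threshold. *his-6* (H3) was at -0.43 and *his-69* at -0.28 on the log2 scale without a call. *his-38* (H4) and *his-40* (H3), a pair on chromosome X, were below 1.5 CPM in every day 11 library.

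The change with age itself differed between the RNAi treatments. The difference between both changes (the log2FC of day 11 against day 1 under *cco-1* RNAi less the one under ev) was called in 21 of 30 members, 19 of them below 0, where 35.3% of all genes were called (17.2% above and 18.1% below 0). The median was -0.75, against -0.10 over all genes. Of the 22 intronless genes 17 were called, all below 0, with the largest differences in *his-63* (-1.43, SE 0.17), *his-64* (-1.41, SE 0.24), *his-73* (-1.31, SE 0.20) and *his-67* (-1.23, SE 0.19). The 17 include *his-1*, *his-2*, *his-4* and *his-31*, which met the minimum almost only in old ev worms, so that the rule favoured this direction. Among the spliced genes *his-24* (-1.51, SE 0.19) and *his-57* (-0.61, SE 0.19) were called below 0, and *his-35* (0.63, SE 0.15) and *his-41* (0.55, SE 0.14) above 0. The call of *his-41* was lost without *cco-1* RNAi replicate 1 of day 11 (0.43) and without ev replicate 3 of day 11 (0.49). *his-35* and *his-41* are an H2A and H2B pair, and both fell with age in each treatment, by less in *cco-1* RNAi worms.

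Tissue markers moved over the same days. Over all genes, 15.1% were called higher and 13.3% lower in *cco-1* RNAi worms than in ev worms at day 11. At day 11, all 8 intestinal markers were higher in *cco-1* RNAi worms than in ev worms (median log2FC 2.34), and their summed level was 32690 to 66336 CPM in *cco-1* RNAi worms and 4453 to 4998 CPM in ev worms. At day 1 that sum was 52120 to 53903 CPM in *cco-1* RNAi worms and 74366 to 74490 CPM in ev worms. Whether sums of this size moved the values of other transcripts was not tested. The intestinal list includes *elt-2* and *asp-1*. The study reports a weaker decline of *elt-2* mRNA with age and a raised *asp-1* under *cco-1* RNAi. The list is therefore not a measure of tissue alone. All 6 body wall muscle markers were also higher in *cco-1* RNAi worms at day 11 (median 1.91), at 816 to 1375 CPM in *cco-1* RNAi worms and 304 to 346 CPM in ev worms. Of 12 germline markers none was called in that comparison (median -0.11), and their sums overlapped, at 3181 to 3482 CPM in *cco-1* RNAi worms and 3241 to 3272 CPM in ev worms. Of 12 oocyte and eggshell markers 5 were higher in *cco-1* RNAi worms (12085 to 12257 CPM, against 8085 to 8265 CPM in ev worms). Of 11 early embryo markers tested 2 were higher and 2 lower, with 129 to 130 CPM in *cco-1* RNAi worms and 106 to 114 CPM in ev worms. Of 9 sperm markers 1 was higher, at 143 to 215 CPM in *cco-1* RNAi worms and 165 to 169 CPM in ev worms. Higher in *cco-1* RNAi worms were also 2 of 3 pharyngeal markers, 1 of 6 neuronal markers and 2 of 5 hypodermal markers. After rescaling by the median of ratios, 1 germline marker was called higher in *cco-1* RNAi worms and the germline median was 0.0066, and 2 sperm and 3 neuronal markers were called higher. The same rescaling shifted the median of all genes by -0.26 at day 11 against day 1 in ev worms and by -0.17 in *cco-1* RNAi worms, and left 20 members higher and 6 lower in ev worms and 14 higher and 6 lower in *cco-1* RNAi worms. The part of the tissue markers in the histone changes was not tested.

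At the earlier days fewer members differed between *cco-1* RNAi and ev worms. At day 1, 1 of 30 members was called, where 9.09% of all genes were (4.63% higher and 4.46% lower). At day 3, 7 were lower and 1 higher (17.3% of all genes called, 9.36% higher and 7.92% lower), and 6 of the 7 were intronless. *his-67* was lowest, with 1.58, 2.01 and 2.08 CPM in *cco-1* RNAi worms and 5.24, 5.62 and 6.24 CPM in ev worms (log2FC -1.22, SE 0.14). *his-48* had 4.99, 5.44 and 5.41 CPM in *cco-1* RNAi worms and 11.0, 10.2 and 9.93 CPM in ev worms (log2FC -0.86, SE 0.14). *his-63* was at -0.69 and *his-60* at -0.65 on the log2 scale. In none of the day 3 calls did the groups overlap, but the share of called genes without overlap was not worked out over all genes.

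At day 5, 4 members were higher and 3 lower in *cco-1* RNAi worms than in ev worms (33.4% of all genes called, 16.7% higher and 16.6% lower), and the 4 higher ones were intronless. The divergent H2A and H2B pair *his-61* and *his-62* was among them, *his-61* with 9.86, 12.1 and 9.83 CPM in *cco-1* RNAi worms and 5.40, 5.12 and 5.86 CPM in ev worms (log2FC 0.84, SE 0.13). *his-62* had 10.9, 12 and 10.8 CPM in *cco-1* RNAi worms and 7.13, 7.53 and 6.85 CPM in ev worms (log2FC 0.58, SE 0.13). Neither gene overlapped between the groups at day 5, and both were called lower in *cco-1* RNAi worms at day 11, *his-61* not after the rescaling. At day 7, 7 members were lower and 1 higher (24.6% of all genes called, 11.6% higher and 13% lower), and at day 9, 8 were lower (18.1% of all genes called, 9.44% higher and 8.69% lower). The day 9 calls were led by *his-24* (log2FC -1.76, SE 0.13), *his-63* (-0.83, SE 0.12), *his-67* (-0.79, SE 0.14) and *his-64* (-0.74, SE 0.17). Without *cco-1* RNAi replicate 1 of day 7 the count of that day fell to 5, as *his-37*, *his-41* and *his-71* came to -0.49, -0.48 and -0.48.

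The linker histone gene *his-24* (chromosome X, 14490094 to 14491119, plus strand, WBcel235) changed most of all members. It encodes H1.1, an H1 with roles in the germline and in gene silencing. In ev worms it had 3.37, 2.99 and 3.27 CPM at day 1, 35.5 to 41.7 CPM on day 3, then 68.1, 73.6 and 60.9 CPM at day 5, 44.8 to 54.2 CPM on day 7, 26.3 to 27.1 CPM at day 9 and 20.6 to 23.2 CPM at day 11. In *cco-1* RNAi worms it had 4.15, 3.83 and 3.42 CPM at day 1, 17.1 to 19.4 CPM at day 3, 7.35, 13.8 and 9.54 CPM at day 5, 6.18 to 8.50 CPM at day 7, 6.26 to 8.69 CPM at day 9 and 7.82 to 8.94 CPM at day 11. The mid-adult peak of ev worms was missing in *cco-1* RNAi worms, whose highest libraries were those of day 3, and from day 3 on every *cco-1* RNAi library lay below every ev library of its day. The log2FC between *cco-1* RNAi and ev was 0.19 on day 1 without a call. It came to -1.05 on day 3, fell to its lowest of -2.65 on day 5 and was -2.50 on day 7, -1.76 by day 9 and -1.32 by day 11 (SE 0.13 each). At day 5 against day 1 the gene rose by a log2FC of 1.19 in *cco-1* RNAi worms and of 4.02 in ev worms, and the difference of these changes was -2.83 (SE 0.19, adjusted *P* = 5.7e-14 by limma).

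*his-72* (chromosome III, 12367475 to 12369050, minus strand) encodes the H3.3 expressed in most tissues of the worm. In ev worms it also peaked at day 5, with a smaller rise than *his-24*. In *cco-1* RNAi worms the courses differed, as the mean of *his-24* was highest at day 3 and that of *his-72* at day 11. At day 5 *his-72* had 247, 327 and 254 CPM in *cco-1* RNAi worms and 537, 617 and 512 CPM in ev worms (log2FC -1.01, SE 0.10). At day 7 it had 233, 257 and 264 CPM in *cco-1* RNAi worms and 503, 533 and 471 CPM in ev worms (log2FC -0.998, SE 0.10). The groups did not overlap on either day. At day 1 it averaged 179 ± 4.84 CPM in *cco-1* RNAi worms and 137 ± 2.27 CPM in ev worms, and at day 11 323 ± 16.1 CPM in *cco-1* RNAi worms and 271 ± 31.9 CPM in ev worms (SD, *n* = 3 each), and neither difference reached the threshold. In ev worms *his-72* rose by 2.01 at day 5 against day 1 on the log2 scale, in *cco-1* RNAi worms by 0.61, and the difference of these changes was -1.39 (SE 0.14). In *cco-1* RNAi worms every day 5 library lay above every day 1 library, but the call of this rise lay near the threshold. The rise was 0.49 without replicate 2 of day 5 (adjusted *P* = 5.5e-05 by limma) and 0.42 after rescaling by the median of ratios, and was called in neither case.

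At day 5 against day 1 as a whole, 12 members were higher and 5 lower in *cco-1* RNAi worms (53.1% of all genes called, 30.1% higher and 23.1% lower), and 11 were higher and 3 lower in ev worms (58.4% of all genes called, 31.6% higher and 26.8% lower). The changes differed between the treatments in 9 members, 4 above and 5 below 0, where 34.5% of all genes were called (17.5% above and 17% below 0). Besides *his-24* and *his-72*, those below 0 were *his-71*, *his-37* and *his-32*, at -1.04, -0.83 and -0.64. Those above 0 were *his-69*, *his-61*, *his-48* and *his-62*, at 0.69, 0.61, 0.54 and 0.51. The last of these calls lay at the threshold. *his-48* was lost without *cco-1* RNAi replicate 1 of day 1 (0.50) or replicate 2 of day 5 (0.50), and *his-62* without any one of ev replicate 2 of day 1 (0.48), ev replicate 3 of day 5 (0.48), *cco-1* RNAi replicate 2 of day 1 (0.49) or of day 5 (0.47). After rescaling by the median of ratios both calls were lost (0.50 and 0.46), which left 2 members above 0.

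**Figure D3:**
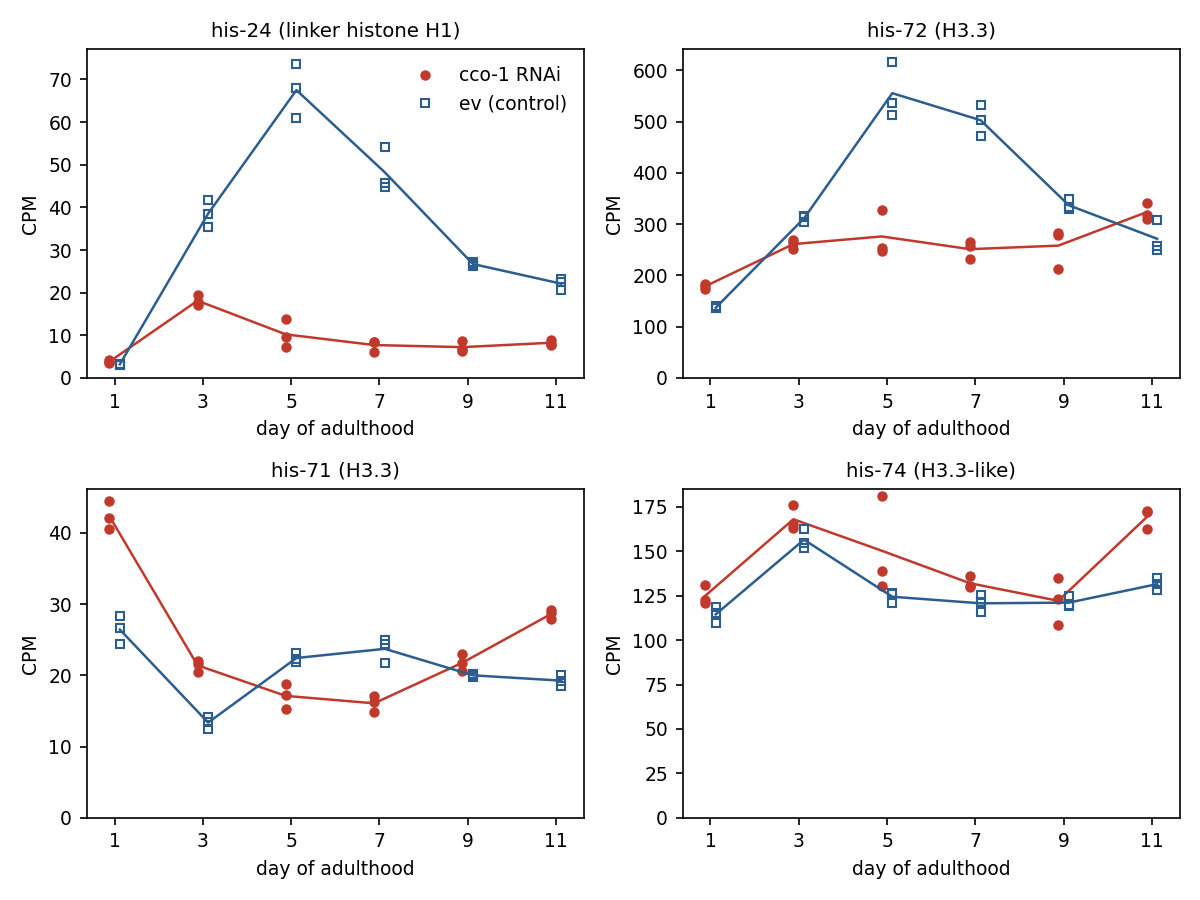
CPM (vertical axes, from 0) of the linker histone gene *his-24* and the H3.3 genes *his-72*, *his-71* and *his-74* against day of adulthood. Points are single libraries (filled circles, *cco-1* RNAi; open squares, ev) and lines join the means of 3. At day 5 *his-24* averages 10.2 CPM in *cco-1* RNAi worms and 67.5 CPM in ev worms.

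Of the other spliced H3.3 genes, *his-71* had its highest ev mean at day 1 and *his-74* at day 3. In ev worms *his-71* did rise from a mean of 13.4 CPM at day 3 to 22.4 CPM at day 5 and 23.7 CPM at day 7. *his-71*, the second H3.3 gene (chromosome X, 7981382 to 7982070, minus strand), was the single member called at day 1, with 40.5, 44.6 and 42.1 CPM in *cco-1* RNAi worms and 24.4, 26.6 and 28.3 CPM in ev worms (log2FC 0.66, SE 0.07). It was also higher at day 3 (0.64), with 21.7, 20.5 and 22.01 CPM in *cco-1* RNAi worms and 12.5, 14.2 and 13.4 CPM in ev worms, and at day 11 (0.55), with 28.7, 29.2 and 27.9 CPM in *cco-1* RNAi worms and 18.5, 19.2 and 20.1 CPM in ev worms. The sign had turned by day 5, with 15.29, 18.83 and 17.24 CPM in *cco-1* RNAi worms and 23.18, 22.25 and 21.88 CPM in ev worms. There the groups did not overlap, but the log2FC of -0.375 (SE 0.07) was under the threshold. At day 7 the gene was called lower, with 14.8, 16.3 and 17.2 CPM in *cco-1* RNAi worms and 24.5, 25.0 and 21.8 CPM in ev worms (log2FC -0.53, SE 0.07). That call was lost without *cco-1* RNAi replicate 1 of day 7 (-0.48) and without ev replicate 2 of day 7 (-0.50). *his-74*, an H3.3-like gene on chromosome V, was called in none of the 12 comparisons and stayed between 108 and 181 CPM in all 36 libraries. Its largest difference between the treatments was at day 11, at 173, 172 and 163 CPM in *cco-1* RNAi worms and 128, 135 and 131 CPM in ev worms (log2FC 0.36, SE 0.07), where the groups did not overlap but the threshold was not reached.

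The intronless H3.3-like genes *his-69* and *his-70*, which are neighbours on chromosome III, had patterns of their own. *his-70* was low in mid-adulthood, with 1.01, 1.2 and 1.27 CPM in *cco-1* RNAi worms and 0.260, 0.502 and 0.246 CPM in ev worms at day 5 (log2FC 0.70, SE 0.11), when it was below its day 1 level by 1.51 in *cco-1* RNAi worms and 1.92 in ev worms on the log2 scale. At day 11 it had 4.16, 5.23 and 5.17 CPM in *cco-1* RNAi worms and 6.88, 7.07 and 8.12 CPM in ev worms (log2FC -0.52, SE 0.11), and the groups did not overlap at either day. The day 11 call was lost without *cco-1* RNAi replicate 1 (-0.43), without ev replicate 3 (-0.45) and after rescaling by the median of ratios (-0.42). *his-69* had 1.09, 0.925 and 0.767 CPM in *cco-1* RNAi worms and 0.0550, 0.184 and 0.246 CPM in ev worms at day 5 (log2FC 0.73, SE 0.13), and it rose by day 11 in both, by 1.02 in *cco-1* RNAi worms and by 1.33 in ev worms.

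The spliced core histone genes on chromosome V ran against the intronless ones. *his-35* (H2A, 9544659 to 9545288), *his-41* (H2B, 9545536 to 9546264) and *his-37* (H4, 9547105 to 9547607) lie side by side and all fell with age. At day 11 against day 1, *his-35*, *his-41* and *his-37* had log2FC of -0.56, -1.01 and -1.28 in *cco-1* RNAi worms and of -1.19, -1.56 and -0.99 in ev worms. *his-41* had 16.3, 12.1 and 13.2 CPM at day 11 and 30.96, 27.9 and 27.5 CPM at day 1 in *cco-1* RNAi worms, and 11.2, 12.7 and 10.5 CPM at day 11 and 36.98, 34.3 and 35.6 CPM at day 1 in ev worms. Old and young libraries did not overlap for any of these genes. *his-35* was higher in *cco-1* RNAi worms at day 11, with 56.5, 42.1 and 49.1 CPM in *cco-1* RNAi worms and 28.2, 35.99 and 32.95 CPM in ev worms (log2FC 0.59, SE 0.11). This call was lost without *cco-1* RNAi replicate 1 of day 11 (0.48) or ev replicate 1 of day 11 (0.49). The fall of *his-35* with age in *cco-1* RNAi worms came under the threshold without *cco-1* RNAi replicate 2 of day 11 (-0.45). *his-37* was lower in *cco-1* RNAi worms at day 5, with 28.4, 25.5 and 25.7 CPM in *cco-1* RNAi worms and 38.6, 43.1 and 39.7 CPM in ev worms (log2FC -0.59, SE 0.09).

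At day 11 against day 1, 2 intronless members were lower in both treatments, *his-38* and *his-40*. *his-38* had 0.252, 0.883 and 0.323 CPM at day 11 and 2.88, 2.55 and 2.22 CPM at day 1 in *cco-1* RNAi worms (log2FC -1.28, SE 0.13), and 0.398, 0.894 and 0.833 CPM at day 11 and 2.91, 3.54 and 3.27 CPM at day 1 in ev worms (log2FC -1.32, SE 0.13). *his-40* followed with log2FC of -0.95 in *cco-1* RNAi worms and -1.24 in ev worms. For neither gene did the changes with age differ between the treatments by the test (*his-38*, difference 0.05, SE 0.18, and *his-40*, difference 0.29, SE 0.20).

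**Figure D4:**
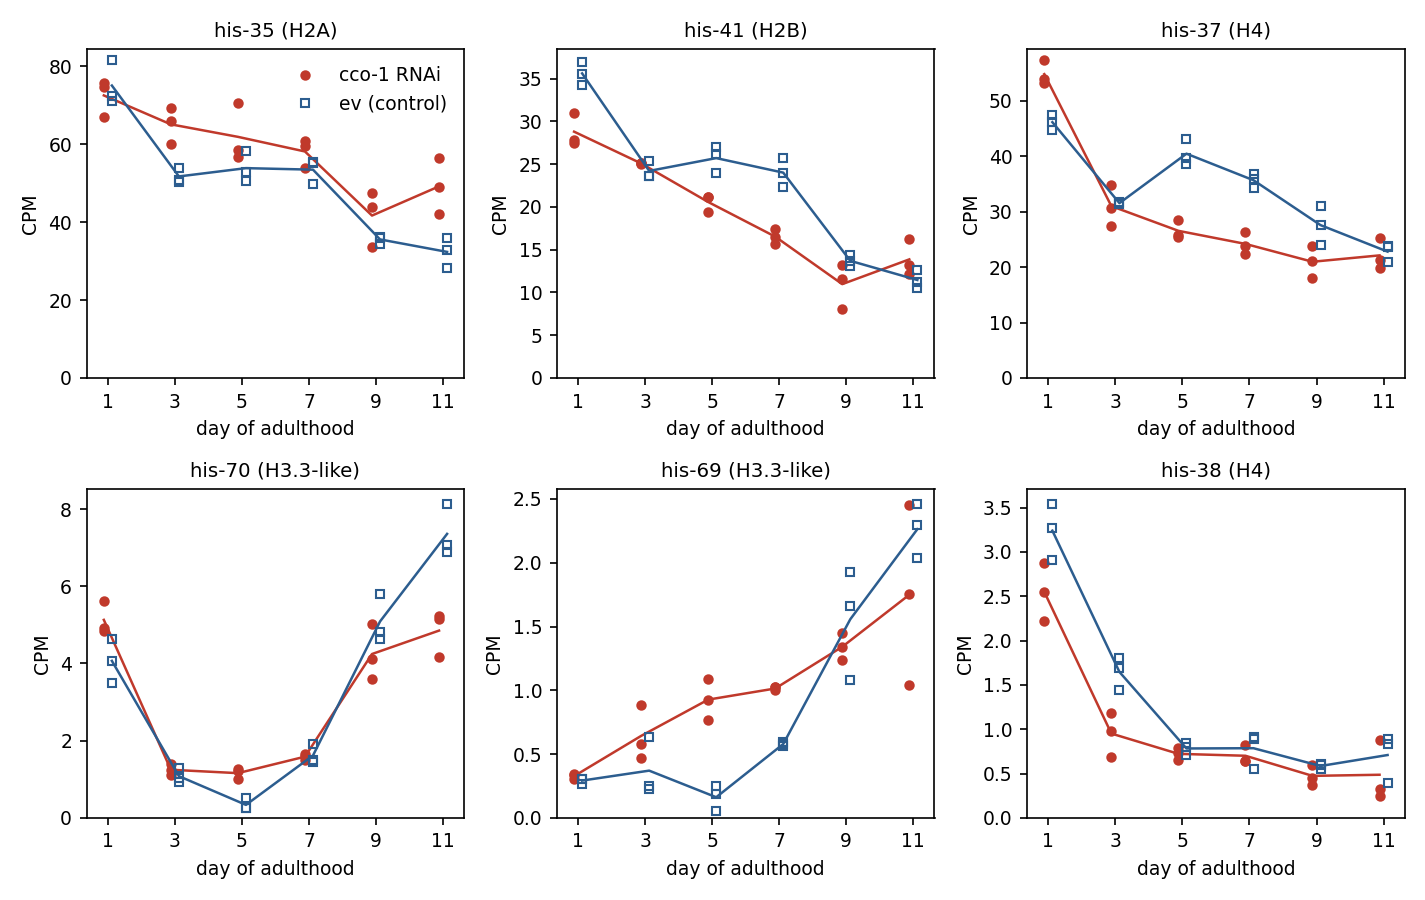
CPM (vertical axes, from 0) of the chromosome V genes *his-35*, *his-41* and *his-37*, of *his-70*, *his-69* and *his-38* against day of adulthood. Points are single libraries (filled circles, *cco-1* RNAi; open squares, ev) and lines join the means of 3. *his-70* averages 1.16 CPM in *cco-1* RNAi worms and 0.336 CPM in ev worms at day 5.

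Of the members, 20 form 10 divergent pairs with 234 to 368 bases between their starts. Over the 12 group means on the log2 scale, the correlation within a pair lay between 0.84 and 0.98 in 9 of the 10 pairs, from *his-5* with *his-6* to *his-38* with *his-40*. The pair *his-67* and *his-68* on chromosome I was the exception at 0.22. Its H4 gene *his-67* rose with age by 0.89 in *cco-1* RNAi worms and 2.12 in ev worms. Its H2A gene *his-68* had log2FC of 0.59 in *cco-1* RNAi worms and 0.50 in ev worms, the second of which was not called, and the first was 0.36 and not called after rescaling by the median of ratios. The means of a pair share their libraries and their normalization, and no test was made. Correlations between members of different pairs were not worked out, and most intronless members rose with age in ev worms. The values therefore do not tie the agreement to the pairing.

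Most genes for other linker and variant histones were higher in old worms of both treatments, where 34.1% of all genes were called higher in *cco-1* RNAi worms and 41.8% in ev worms. Of 11 other linker and variant histone genes, 10 were higher at day 11 against day 1 in *cco-1* RNAi worms (median 1.11) and 10 in ev worms (median 1.29), and 7 and 8 after rescaling by the median of ratios. *hil-3*, another H1 gene, averaged 37.02 CPM in *cco-1* RNAi worms and 275 CPM in ev worms at day 5, and 34.7 CPM in *cco-1* RNAi worms and 78.8 CPM in ev worms at day 11. *hil-7*, also an H1 gene, averaged 3.46 CPM in *cco-1* RNAi worms and 12.5 CPM in ev worms at day 11, and the H2A.Z gene *htz-1* 799 CPM in *cco-1* RNAi worms and 818 CPM in ev worms. Between *cco-1* RNAi and ev worms, 4 of the 11 were lower at day 5, and at day 11 1 was higher and 3 were lower. Over all genes 16.6% were lower at day 5, and 15.1% were higher and 13.3% lower at day 11. Of 16 genes tested for histone mRNA processing and histone chaperones, 11 rose in *cco-1* RNAi worms and 12 in ev worms by day 11, among them the chromatin assembly factor genes *chaf-2* and *lin-53* and the chaperone gene *spr-2*, with log2FC of 1.27, 1.24 and 1.13 in ev worms. After the rescaling 9 were called higher in each treatment, with a median of 0.57 in *cco-1* RNAi worms (0.80 before) and of 0.62 in ev worms (0.94 before).

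Of 41 DNA replication genes tested, 38 rose in *cco-1* RNAi worms (median 1.01) and 39 in ev worms (median 1.14) at day 11 against day 1, and 35 and 33 after the rescaling. Over all genes, 34.1% were called higher in *cco-1* RNAi worms and 41.8% in ev worms. The thymidylate synthase gene *tyms-1* (log2FC 2.67 in ev worms), the origin recognition gene *orc-3* (1.97) and the GINS complex gene *psf-3* (1.92) rose most. At day 11, 2 of the 41 were lower in *cco-1* RNAi worms and none higher, with a median of -0.12, and their summed level was 6941 to 7820 CPM in *cco-1* RNAi worms and 7875 to 7981 CPM in ev worms. Over all genes 13.3% were lower and 15.1% higher, with a median of -0.08. After the rescaling the median was -0.0047 for the 41 genes and 0.0050 over all genes, and again 2 of the 41 were lower. The age change differed in 4 of the 41, against 17 of the 22 intronless histone genes and 35.3% of all genes. After the rescaling it differed in 2 of the 41 and in 17 of the 22, and the share of all genes was not worked out after it. Some of the 22 met the minimum almost only in old ev worms. The difference between the lists was not tested.

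**Figure D5:**
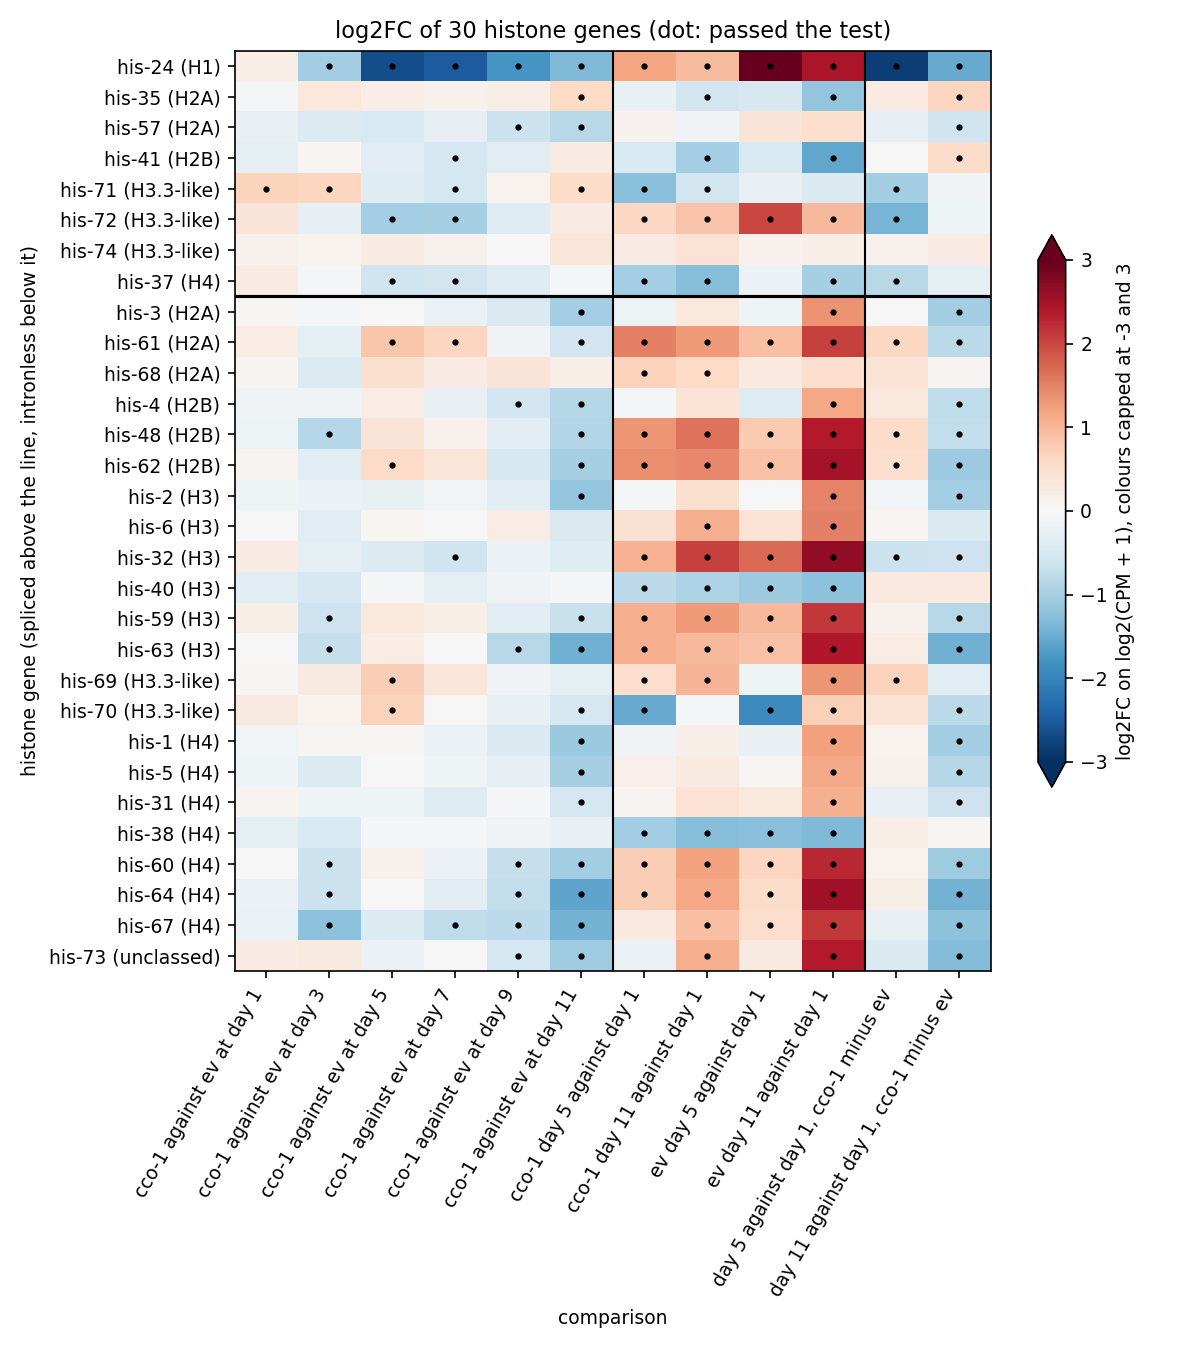
log2FC of the 30 histone genes (vertical axis, spliced above the line and intronless below it, with the class in brackets) in 12 comparisons (horizontal axis). Red is above 0 and blue below it, with colours capped at -3 and 3, and a dot marks a gene called at an absolute log2FC above 0.5 with an adjusted *P* below 0.05. The day 11 column of *cco-1* RNAi against ev holds 18 genes called lower and 2 called higher.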

How the data were processed

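RNA-seq of whole N2 worms was analysed from the deposited gene table. By the study's methods, the authors mapped reads to WBcel235 with STAR, counted unique reads over exons without strand (htseq-count, union mode) before normalization by limma-voom. STAR 2.73a and edgeR 3.24.3 stand in the notes of the submitters. The values the authors deposited are linear and were read as CPM, quantile-normalized. The 10th highest is 3019 in all libraries. Read depth is unknown, so that no counting interval or count test was possible. The authors' deposited log2 fold changes, ratio and p-value columns, and their enrichment scores, were not used.

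Genes with 1 CPM in at least 3 libraries (15713) were fitted on the log2(CPM + 1) scale (limma 3.58.1, R 4.3.3, 12 groups, trended and robust empirical Bayes, 24 residual degrees of freedom). The fit was tested on simulated data. Gene models are from release 115 of the WBcel235 annotation, while the study's methods name an earlier release. Named are the spliced and variant genes, members with a mean of at least 10 CPM, up to 4 called members with the largest change in each direction and comparison, the genes nearest the minimum, and up to 3 called genes of each other list. *his-6* and the members listed as not called, or for a differing age change alone, were named after their values were seen. Members and lists were chosen with earlier results of these data known. Alternatives were other pseudocounts, filters, scaling, variance settings, thresholds, samples in the fit, a replicate block and each library left out. No sequence was used here.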

Additional observations from a re-analysis of the deposited data

Results flagged for a closer look

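The results below were marked because the change with age differed between *cco-1* RNAi and ev worms by the interaction test of limma (adjusted *P* below 0.05 over all genes, absolute difference above 0.5). All differences are log2FC in *cco-1* RNAi worms minus log2FC in ev worms. At day 5 against day 1 they were -2.83 for *his-24*, -1.39 for *his-72*, -1.04 for *his-71*, -0.833 for *his-37*, -0.638 for *his-32*, 0.692 for *his-69*, 0.61 for *his-61*, 0.54 for *his-48* and 0.51 for *his-62*. Below 0 were thus 4 spliced genes and the intronless *his-32*, and the 4 above 0 were intronless.

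At day 11 against day 1 they were -1.51 for *his-24*, -1.43 for *his-63*, -1.41 for *his-64*, -1.31 for *his-73*, -1.23 for *his-67*, -1.08 for *his-62*, -1.07 for *his-60*, -0.839 for *his-59* and -0.794 for *his-70*. The remaining members called came to -1.05 for *his-1*, -1.04 for *his-3*, -1.01 for *his-2*, -0.867 for *his-5*, -0.799 for *his-61*, -0.754 for *his-4*, -0.739 for *his-48*, -0.631 for *his-31*, -0.614 for *his-32* and -0.608 for *his-57*. Of these, *his-1*, *his-2*, *his-4* and *his-31* met the minimum almost only in old ev worms. Above 0 were *his-35* at 0.634 and *his-41* at 0.547, both spliced genes of chromosome V. For *his-62* the sign turned between the days, with 0.51 at day 5 and -1.08 at day 11. In the annotation used here, *his-4*, *his-24*, *his-37*, *his-41*, *his-57* and *his-73* share exon bases with other genes, and reads over several genes were counted for none.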

How the results depend on the processing

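No called value of a named member changed sign under any alternative tried. Under median-of-ratios scaling some medians near 0 did, among them that of all genes (-0.08, rescaled 0.0050) and that of the germline markers between *cco-1* RNAi and ev at day 11 (-0.11, rescaled 0.0066) and that of all 30 members at day 5 (0.0019, rescaled -0.015), and 12 calls of members ended. Of the values for single named genes under the alternatives, 1797 stayed on their side of the threshold and 118 lost their call. Counts of members called between *cco-1* RNAi and ev were, in order of day, 1, 8, 7, 8, 8 and 20. With a pseudocount of 0.1 CPM they were 2, 13, 12, 10, 11 and 21. With 5 CPM they were 1, 4, 4, 2, 2 and 10. By adjusted *P* alone they were 4, 18, 16, 12, 17 and 26, and at an absolute log2FC above 1 they were 0, 2, 2, 1, 1 and 10 at days 1 to 11. The count of 0 at day 1 stands beside 4 by adjusted *P* alone. A minimum of 5 CPM left 19 members, of which 13 were called at day 11. The share of all genes called was worked out in the main setting alone. The counts under other settings, here, above and below, therefore cannot be set against a share of all genes.

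For day 5 against day 1, a pseudocount of 5 CPM gave 11 in *cco-1* RNAi worms and 7 in ev worms. A log2FC above 1 gave 11 and 6, and adjusted *P* alone gave 21 and 22. For day 11 against day 1, a pseudocount of 5 CPM and a log2FC above 1 gave 12 and 13 in *cco-1* RNAi worms and 20 and 23 in ev worms. The 5 CPM minimum gave 17 in *cco-1* RNAi worms and 16 in ev worms. Smaller shifts under other settings are not listed. The difference of the changes was called in 4 and 3 members at day 5 and in 11 and 10 at day 11, with a pseudocount of 5 CPM and a log2FC above 1. A higher pseudocount shrinks the log2FC of low genes, and most intronless members are low. Median-of-ratios scaling moved the summed CPM of all members to 643 in *cco-1* RNAi worms at day 1, and to 557, 744, 662 and 652 in ev worms at days 1, 3, 9 and 11.

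Leaving out 1 library in turn gave 1 to 1, 8 to 10, 7 to 8, 5 to 8, 7 to 11 and 17 to 21 members between the treatments at days 1 to 11. The day 5 changes gave 16 to 18 in *cco-1* RNAi worms and 13 to 15 in ev worms, the day 11 changes 20 to 23 and 26 to 28, and their differences 7 to 10 and 19 to 22. The lowest count at day 7 was that without *cco-1* RNAi replicate 1.

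With the replicate number as a block, the counts were 1, 8, 7, 8, 8 and 20 between the treatments, 17 and 21 for the changes in *cco-1* RNAi worms at days 5 and 11, 14 and 26 in ev worms, and 9 and 21 for the differences, the same as without the block. Deviations of samples with the same number correlated between -0.138 and 0.207, so that the numbers were not taken as pairs.

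Depth is unknown, and of 1080 values of members 804 were at least 1 CPM, so that small changes of the lowest members could not be resolved. With 3 libraries a group, an exact permutation test of a single gene cannot go below a *P* of 0.10, and calls rest on the variance shared across genes by limma. Unique mapping, polyA selection and counting without strand limit which histone mRNAs were seen.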

Other observations

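*C50F4.6*, a protein-coding gene inside the chromosome V cluster of *his-35*, *his-41* and *his-37* that overlaps an exon of *his-41*, was looked at after its values were seen. It averaged 4.77, 21.6, 12.8, 11.2, 11.0 and 11.2 CPM in *cco-1* RNAi worms and 3.50, 30.02, 48.5, 32.1, 26.9 and 23.1 CPM in ev worms from day 1 to day 11 in order. Its course had the mid-adult maximum of ev worms that *his-24*, *his-72* and *hil-3* had, whereas the histone genes around it fell with age. At day 5 it had 10.4, 15.3 and 12.7 CPM in *cco-1* RNAi worms and 46.3, 52.2 and 47.1 CPM in ev worms, and the groups did not overlap.

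Of 11 early embryo markers tested, 6 were lower and 1 higher in *cco-1* RNAi worms than in ev worms at day 3 (median log2FC -0.58), and 6 were lower and 2 higher at day 5 (median -0.51). Over all genes 7.92% were lower and 9.36% higher at day 3, and 16.6% lower and 16.7% higher at day 5. At day 5 the mesoderm gene *hnd-1* averaged 2.78 CPM in *cco-1* RNAi worms and 8.49 CPM in ev worms, and the endoderm gene *end-1* 0.749 CPM in *cco-1* RNAi worms and 1.87 CPM in ev worms. At that day the summed level of the 14 markers in the table ran the other way, at 138 to 152 CPM in *cco-1* RNAi worms and 115.2 to 118.6 CPM in ev worms, since *nhr-23* and *elt-3* make up most of it. Their part in the histone values was not tested.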
